A study of Solanum lycopersicum with 4 samples.

Results

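The genes described here are 10 tomato genes of ascorbate (vitamin C) metabolism, taken by a list of Solyc gene IDs. No value entered that rule, but the list was chosen with earlier results of these data known. Of the 10 genes, 6 act in synthesis and 4 in the use and recycling of ascorbate, and all 10 were present among the 34675 genes of the deposited table. They were measured by RNA sequencing in fruit of Solanum lycopersicum, cultivar Ailsa Craig, without treatment, in 4 libraries. The transgenic group held 2 libraries from fruit that express CsMYBF1, a MYB transcription factor gene from citrus, 1 from line D7 (replicate 1) and 1 from line C2 (replicate 2). The wild-type group held 2 libraries of the same cultivar. Each transgenic line is thus represented by 1 library, and the labels give neither the promoter of the transgene nor the age or ripening stage of the fruit, nor whether the libraries of a group came from separate plants. The p-values therefore measure only the spread between these libraries, which may be technical in the wild type.

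In plants, ascorbate is made mainly from GDP-mannose through L-galactose. GMP (GDP-mannose pyrophosphorylase) makes GDP-mannose, GME (GDP-mannose 3,5-epimerase) turns it into GDP-L-galactose, GGP (GDP-L-galactose phosphorylase) commits the sugar to ascorbate and is regarded as the main point of control, and GLDH (L-galactono-1,4-lactone dehydrogenase) carries out the last oxidation in the mitochondrion. APX (ascorbate peroxidase) spends ascorbate to remove hydrogen peroxide, MDHAR (monodehydroascorbate reductase) restores the radical formed in this reaction, and DHAR (dehydroascorbate reductase) restores the fully oxidised form with glutathione. The products of GMP and GME are also used for cell wall polysaccharides.

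The names follow the list by which the genes were chosen. The RefSeq gene table holds 0 Solyc IDs and so does not link them, but for each of the 10 genes it lists 1 gene of that name or synonym on the chromosome that the ID gives. For the GGP genes it places GGP2 on chromosome 2 and GGP1 on chromosome 6, and they are called here by chromosome. APX1 and APX2 have neighbouring IDs on chromosome 6, and 0 genes lie between the APX1 and APX2 of the RefSeq table. Members of a pair are related in sequence, and how the authors counted reads that map to both is not given in the sources used here, so the split within a pair is uncertain.

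The values are RPKM (reads scaled to gene length in kilobases and to library size), which allow levels to be compared between genes. Read numbers recovered from the steps of the RPKM values gave library totals of 12916160 to 21403774 reads. Groups were compared with limma on log2(RPKM + 1), with p adjusted by Benjamini-Hochberg over the 16876 genes tested and called below 0.05. The median log2 fold change over these genes was 0.49 in the deposited values, moved to -0.05 by median-of-ratios scaling. It varied with gene length, and above about 1000 bases was higher the longer the genes (the plot of fold change against length). The summed RPKM of all genes was 840841 and 818375 in the transgenic libraries and 1064849 and 1121540.1 in the wild-type libraries. The level of the citrus gene was not analysed here, and the tissue was not checked against marker genes, since no source used here pairs such names with the IDs.

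All 10 genes were read in every library, at 2.92 to 345 RPKM, and all passed the filter on low values (an average of 1 RPKM or more). GLDH was higher in the transgenic fruit and was the single member called in either direction. Of the 10 genes, 1 was called higher, where 18.8% of all tested genes were, and 0 were called lower, where 2.09% were. Median-of-ratios scaling turned that background to 2.95% higher and 5.49% lower, with 0 members called in either direction. At an unadjusted limma p below 0.05, 2 members were higher (GLDH and MDHAR) and 0 were lower. Over all tested genes these shares are at least the 18.8% and 2.09% called after adjustment. With voom, a limma model of the recovered reads, the calls were also 1 and 0, beside 20.9% and 1.97% of all genes. Both transgenic libraries lay above both wild-type libraries for 3 members (GLDH, MDHAR and the GGP gene on chromosome 2), as for 50.7% of all tested genes. They lay below them for 4 members (GMP, DHAR, APX1 and APX2), as for 17.4% of all tested genes. The log2 fold changes of the members ran from -1.01 to 1.28 with a median of -0.22, where the whole table had 0.49, and 8 of the 10 lay below that value. With median-of-ratios scaling the members also had the lower median, at -0.85 against -0.05. The same held with each library scaled to the same summed RPKM, at 0.17 against 0.83. The gap nearly closed with quantile normalization, which rescales high and low levels differently. The medians were then -0.01 and 0.03, and 5 of the 10 members lay below that of the table. In whole fruit, fewer cells of a type and less RNA per cell cannot be told apart.

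**Figure D1:**
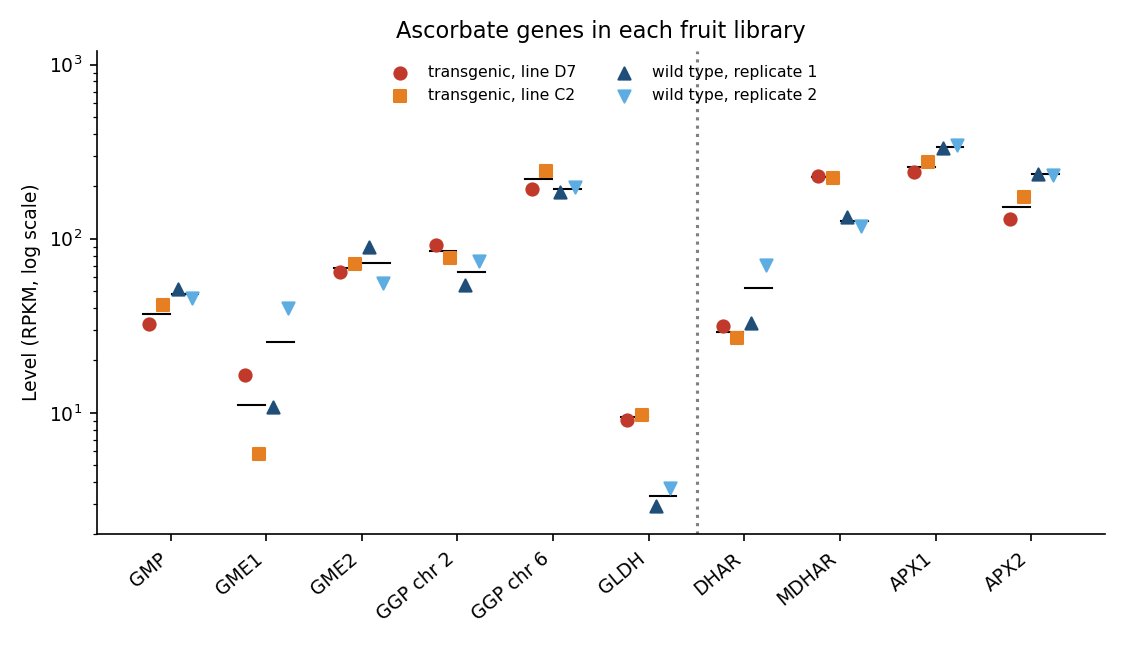
Level of each ascorbate gene in each library (RPKM, log scale); each symbol is 1 library, horizontal lines are group means (n = 2), and the dotted line separates synthesis genes from those of recycling and use. GLDH stands lowest in wild type and separates the groups most clearly (9.13 and 9.72 against 2.92 and 3.7 RPKM), whereas GME1 and DHAR spread widely between the wild-type libraries.

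In wild-type fruit the peroxidases were the most abundant members and GLDH the least. The order of the wild-type means was APX1 (337 RPKM), APX2 (234 RPKM), the GGP gene on chromosome 6 (192 RPKM), MDHAR (126 RPKM), GME2 (72.5 RPKM), the GGP gene on chromosome 2 (64.2 RPKM), DHAR (51.8 RPKM), GMP (48.4 RPKM), GME1 (25.4 RPKM) and GLDH (3.31 RPKM). The libraries of neighbours in this order did not overlap among the first 5 genes or among the last 3, but from GME2 to GMP each gene overlapped with the next. In transgenic fruit MDHAR, at a mean of 227 RPKM, stood in place 2 and APX2, at 152 RPKM, in place 4. There MDHAR overlapped with the GGP gene on chromosome 6 (219.9 RPKM), and GME1 (11.1 RPKM) with GLDH (9.43 RPKM).

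The earliest synthesis step covered by the list was that of GMP (Solyc03g096730.2, chromosome 3). Wild-type fruit gave 51.1 and 45.6 RPKM, line D7 gave 32.4 RPKM and line C2 41.5 RPKM. Both lines lay below both wild-type libraries, and line C2 lay close to wild-type replicate 2. The means were 36.9 ± 6.46 and 48.4 ± 3.88 RPKM (SD, n = 2 each), and the log2 difference of -0.39 (standard error 0.29) was not called (limma adjusted p = 0.35). With each library scaled to the same summed RPKM, as TPM values are, the GMP log2 fold change was -0.00.

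GME1 (Solyc01g097340.2, chromosome 1) varied more between libraries of a group than any other member. Wild-type replicates 1 and 2 gave 10.8 and 39.9 RPKM, line D7 gave 16.4 RPKM and line C2 only 5.79 RPKM. Line D7 lay between the wild-type libraries, so the groups overlapped. The lines differed by 2.84-fold, with an exact 95% counting interval of 2.11 to 3.87, and the wild-type libraries by 3.71-fold, with an interval of 3.1 to 4.44. Of 12286 genes averaging 5 RPKM or more, a wider gap on the log2(RPKM + 1) scale was found between the lines for 4.62% and within wild type for 3.8%. The log2 difference between groups was -1.01 (standard error 0.72, limma adjusted p = 0.32), and leaving out wild-type replicate 2 brought it to -0.12, leaving out replicate 1 to -1.91.

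These GME1 values rested on 194, 58, 179 and 406 reads for line D7, line C2 and wild-type replicates 1 and 2, with a recovered length of 776 bases. For every gene, recovered reads and length are lower limits, because all could share a factor. The counting intervals are then too wide rather than too narrow. They cover counting error only, since reads counted without molecular identifiers need not be separate molecules.

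GME2 (Solyc09g082990.2, chromosome 9), the second epimerase gene, lay within a narrower band. Line D7 measured 64.2 RPKM and line C2 71.6 RPKM, both between the wild-type values of 89.4 and 55.7 RPKM. The group means were 67.9 ± 5.22 and 72.5 ± 23.8 RPKM (SD, n = 2 each), with a log2 fold change of -0.06 (standard error 0.33, limma adjusted p = 0.91). That sign was not fixed, since it turned to 0.28 without wild-type replicate 1. The wild-type libraries went opposite ways in the GME genes, with GME1 higher in replicate 2 and GME2 higher in replicate 1. GME1 accordingly made up 10.8% of the summed GME level in wild-type replicate 1 and 41.7% in replicate 2, with line D7 at 20.4% and line C2 at 7.48%. The sum of both genes varied less, at 80.6 and 77.4 RPKM in the transgenic libraries and 100.1 and 95.7 RPKM in wild type.

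Both GGP genes, for the step after GDP-L-galactose, had means slightly above wild type as deposited, and neither passed the test. The GGP gene on chromosome 2 (Solyc02g091510.2) measured 92.3 and 77.1 RPKM in lines D7 and C2, where wild type had 54.3 and 74.2 RPKM. The groups did not overlap, but line C2 lay only just above wild-type replicate 2. Its log2 fold change of 0.41 had a standard error of 0.30 (limma adjusted p = 0.35). Median-of-ratios scaling, which sets the median gene of each library level, turned it to -0.23, and removing each library's trend with gene length turned it to -0.58.

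The GGP gene on chromosome 6 (Solyc06g073320.2) was the most abundant synthesis gene in all 4 libraries, with 193 RPKM for line D7, 246 RPKM for line C2 and 186 and 197 RPKM for wild type. Line C2 stood highest, whereas line D7 lay between the wild-type libraries. Between groups the log2 difference was 0.19 with a standard error of 0.28 (limma adjusted p = 0.64), and these settings turned it to -0.45 and -0.76. This gene provided 67.7% and 76.2% of the summed GGP level in lines D7 and C2 and 77.4% and 72.6% in wild type, so its share overlapped between the groups.

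GLDH (Solyc10g079470.2, chromosome 10), the enzyme of the last step, gave 2.92 and 3.7 RPKM in wild-type fruit and 9.13 and 9.72 RPKM in lines D7 and C2. Both lines stood well above both wild-type libraries. The lines agreed within counting error (ratio of C2 to D7 1.06, exact 95% counting interval 0.901 to 1.26), as did the wild-type libraries (ratio of replicate 2 to replicate 1 1.27, interval 0.975 to 1.64). The transgenic mean of 9.43 ± 0.412 RPKM was 2.85-fold the wild-type mean of 3.31 ± 0.551 RPKM (SD, n = 2 each). The log2 fold change of 1.28 (standard error 0.32) passed the test narrowly (limma adjusted p = 0.044). It rested on 307 and 277 reads in the transgenic and 138 and 107 reads in the wild-type libraries.

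The call of GLDH depended on the processing, while its direction was the same in all 18 other settings. The GLDH log2 fold change was 0.74 with median-of-ratios scaling (limma adjusted p = 0.14) and 0.19 with the length trend removed (limma adjusted p = 0.73). The call was also lost with quantile normalization (limma adjusted p = 0.27), with no filter on low genes (limma adjusted p = 0.088) and in a fit with a replicate block (limma adjusted p = 0.093). The adjusted p ranged from 0.017 to 0.73 over the settings and lay below 0.05 in 9 of them. With 1 library left out, its log2 fold change lay between 1.15 and 1.41, and none of these 4 fits called it. GLDH has the greatest recovered length of the members, 2207 bases. Of the 1596 tested genes of 2000 to 2499 bases, 36.5% were called higher and 0 lower, and their median log2 fold change was 1.15. The part of gene length in the GLDH value was not tested.

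**Figure D2:**
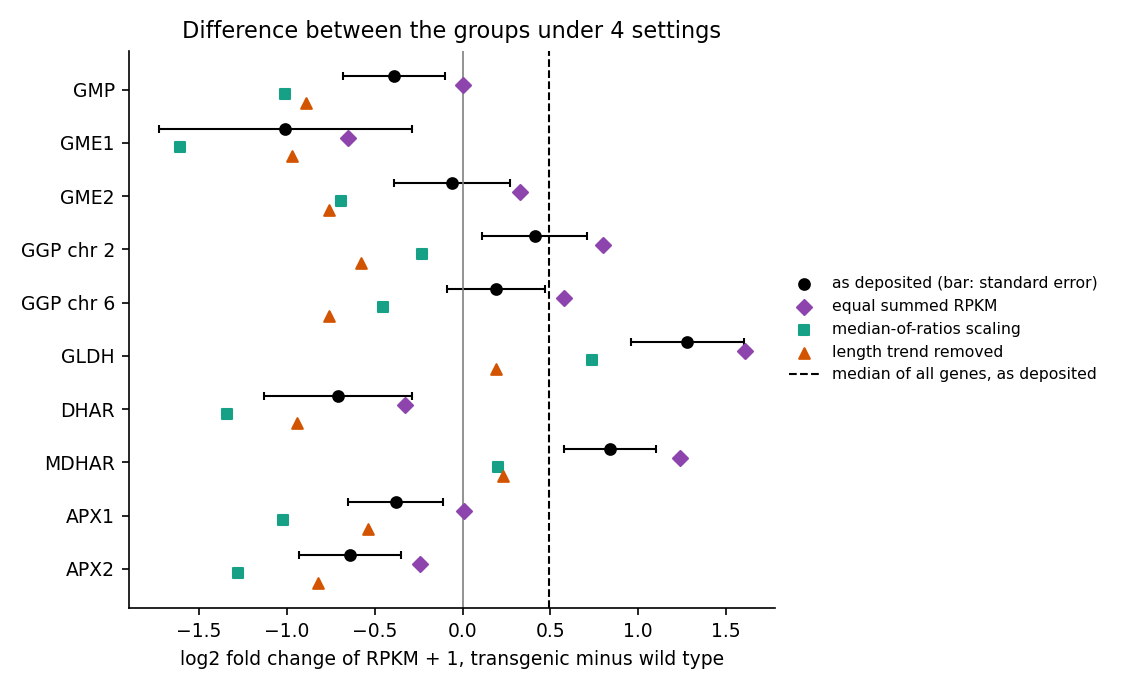
Log2 fold change of RPKM + 1, transgenic minus wild type, for each ascorbate gene under 4 settings (symbols); bars are limma standard errors for the values as deposited and the dashed line is the median of all tested genes as deposited (0.49). GLDH and MDHAR stay above 0 in each of the 4, both GGP genes change sign with median-of-ratios scaling and with the length trend removed, and GME1, DHAR and APX2 stay below 0.

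Among the recycling genes, MDHAR had a mean above wild type and DHAR a mean below it, and neither passed the test. MDHAR (Solyc09g009390.2, chromosome 9) gave 134 and 118 RPKM in wild-type fruit and 229.9 and 223 RPKM in lines D7 and C2. The groups were well apart, and the lines agreed within counting error (ratio of D7 to C2 1.03, exact 95% counting interval 0.989 to 1.07). The transgenic mean of 227 ± 4.62 RPKM was 1.79-fold the wild-type mean of 126 ± 11.4 RPKM (SD, n = 2 each). On the log2 scale the difference was 0.84 with a standard error of 0.26 (limma adjusted p = 0.068).

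The direction of MDHAR was the same in all settings, with log2 fold changes from 0.2 to 1.24 and adjusted p from 0.02 to 0.55. It passed the test in 2 of the 18 settings, those scaling to the same summed RPKM with all genes (limma adjusted p = 0.02) or without the 10 most abundant genes of each library (limma adjusted p = 0.033). These scalings raised the whole table, with 34.8% and 27.7% of all genes called higher and 0.889% and 1.26% lower. Among all listed genes MDHAR held place 606 in line D7 and 565 in line C2, and places 1282 and 1476 in the wild-type libraries. These places do not depend on a scaling of whole libraries. MDHAR has a recovered length of 1564 bases, and the 2861 tested genes of 1500 to 1999 bases had a median log2 fold change of 0.77. In narrower length bins the median was 0.55 near 1467 bases and 0.79 near 1745 bases. Removing the length trend took 0.61 from the value of MDHAR and left 0.23. The part of length was not tested here either.

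DHAR (Solyc05g054760.2, chromosome 5) gave 32.8 and 70.7 RPKM in wild-type fruit and 31.3 and 26.9 RPKM in lines D7 and C2. Wild-type replicate 2 stood apart, and replicate 1 lay just above line D7. The wild-type libraries differed by 2.15-fold (exact 95% counting interval 1.96 to 2.36), more than the lines did (1.16-fold), and 12% of the genes averaging 5 RPKM or more showed a wider gap within wild type. The log2 difference between groups was -0.71 with a standard error of 0.42 (limma adjusted p = 0.24). Leaving out wild-type replicate 2 brought it to -0.17. Leaving out replicate 1 brought it to -1.26.

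The peroxidase genes APX1 and APX2, which use ascorbate, both had lower values in the transgenic libraries as deposited, and neither passed the test. APX1 (Solyc06g005160.2) gave 330.3 and 345 RPKM in wild-type fruit, with 242 RPKM for line D7 and 276 RPKM for line C2. APX2 (Solyc06g005150.2) gave 235 and 233 RPKM in wild-type fruit, with 129 RPKM for line D7 and 174 RPKM for line C2. Both lines lay below both wild-type libraries for each gene, and line C2 was above line D7 for each. The wild-type libraries were nearly level for APX2, with a ratio of replicate 1 to replicate 2 of 1.01 (exact 95% counting interval 0.964 to 1.05).

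The log2 fold changes of the peroxidase genes were -0.38 for APX1 (standard error 0.27, limma adjusted p = 0.32) and -0.64 for APX2 (standard error 0.29, limma adjusted p = 0.15). APX1 turned to 0.01 with equal summed RPKM and to 0.10 with quantile normalization, whereas APX2 stayed below 0 in all settings, from -1.28 to -0.24. APX1 made up 65.2% and 61.3% of the summed APX level in lines D7 and C2 and 58.5% and 59.6% in wild type. That share, which no scaling of whole libraries alters, was slightly above both wild-type values in both lines. The places of APX1 among all listed genes were 568 and 411 in the lines and 515 and 544 in wild type, and those of APX2 were 1218 and 803 against 734 and 817, so by rank the groups overlapped for both genes.

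Ratios between members within a library do not depend on a scaling of whole libraries. The ratios named here were chosen after the values were seen, and with 2 libraries against 2 an exact permutation test cannot go below p = 0.33, so they are descriptions. The summed APX level was 1.61 and 2.02 times that of MDHAR in lines D7 and C2, against 4.21 and 4.89 times in wild type. MDHAR stood at 7.34 and 8.3 times DHAR in the lines and at 4.09 and 1.67 times in wild type. For the APX pair over MDHAR, line D7 and line C2 were therefore close to each other and apart from both wild-type libraries. The APX pair over DHAR overlapped (11.8 and 16.7 in the lines, 17.2 and 8.17 in wild type). These ratios cover the listed genes only, since other genes of these enzymes were not analysed.

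Within synthesis, the summed GGP level was 31.3 and 33.3 times that of GLDH in the lines and 82.3 and 73.3 times in wild type. The GGP sum stood at 8.83 and 7.8 times GMP in the lines and at 4.7 and 5.94 times in wild type. It stood at 3.54 and 4.18 times the GME sum in the lines and at 2.4 and 2.83 times in wild type. In each of these 3 ratios the lines lay on the same side of both wild-type libraries. The sum of the 6 synthesis genes, in contrast, overlapped between the groups, at 408 and 452 RPKM in the lines and 395 and 416 RPKM in wild type.

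**Figure D3:**
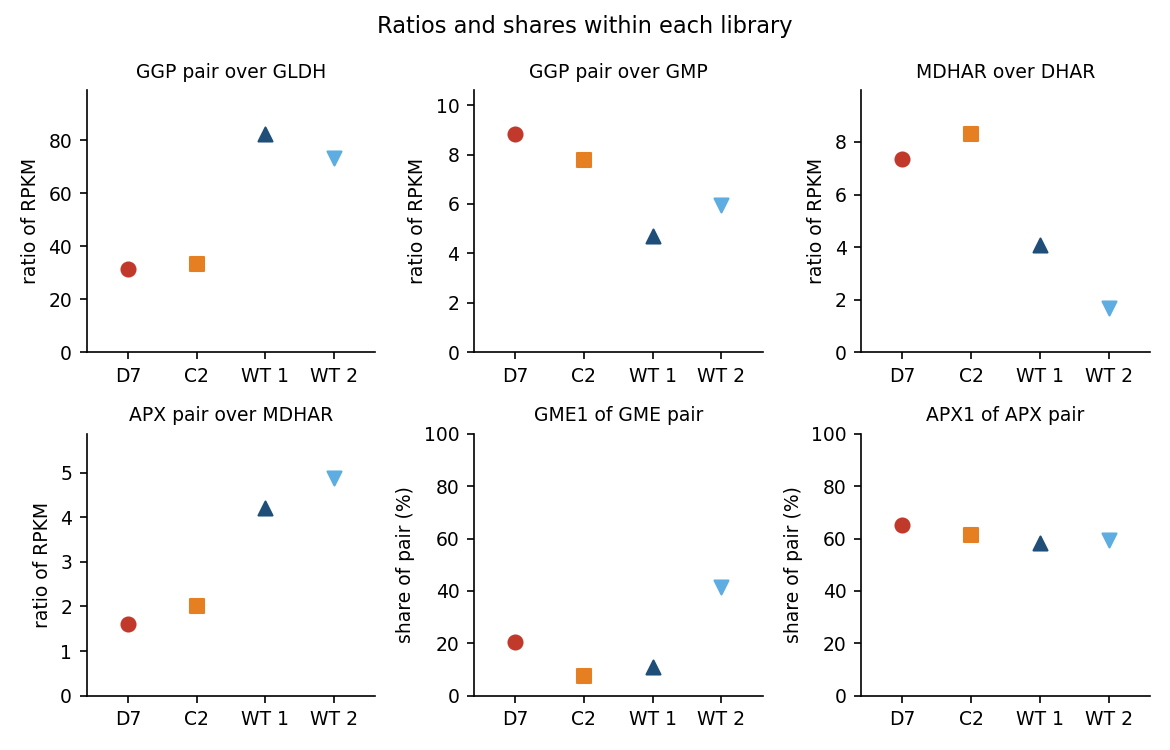
Ratios of RPKM between ascorbate genes (4 panels) and the share of 1 gene in its pair (2 panels, percent), each symbol 1 library, all axes from 0. The ratio of the GGP pair to GLDH was 31.3 and 33.3 in the lines against 82.3 and 73.3 in wild type, and that of the APX pair to MDHAR was 1.61 and 2.02 against 4.21 and 4.89, whereas the share of GME1 overlapped between the groups.

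Gene length can still enter a ratio of genes that differ in length. The log2 fold change of MDHAR exceeded that of APX1 by 1.22 and that of APX2 by 1.48 as deposited. These gaps were 0.78 and 1.05 with the length trend removed, and 1.02 and 1.44 with quantile normalization. GLDH and the GGP gene on chromosome 6 have similar lengths (2207 and 1993 bases). Their log2 fold changes were 1.09 apart as deposited and 0.95 apart with the length trend removed, but -0.04 apart with quantile normalization, which rescales high and low levels differently. For the GGP gene on chromosome 6 and GMP the gap was 0.58 as deposited. It narrowed to 0.13 with the length trend removed but widened to 1.24 with quantile normalization. For that GGP gene and GME2 it went from 0.25 to -0.00 and 0.68 in the same settings.

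The difference between the members and all genes varied with the setting. With the length trend removed, 8 of the 10 log2 fold changes were below 0, from -0.97 for GME1 to -0.54 for APX1, and GLDH (0.19) and MDHAR (0.23) lay above 0. The median of the members was then -0.76, against -0.03 over all genes. None of the members passed the test in that setting (limma adjusted p from 0.15 to 0.73), where 18 genes of the whole table (0.107%) were called higher and 0 (0.0%) lower. With median-of-ratios scaling the same 8 members were below 0, with a median of -0.85 against -0.05 over all genes, and again 0 were called (2.95% of all genes higher and 5.49% lower), with GMP, APX1 and APX2 nearest to the threshold (limma adjusted p = 0.066, 0.067 and 0.056). At equal summed RPKM the median of the members was 0.17, against 0.83 over all genes. With quantile normalization the members, at -0.01, were nearly level with all genes, at 0.03, and 5 of the 10 were below 0.

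**Figure D4:**
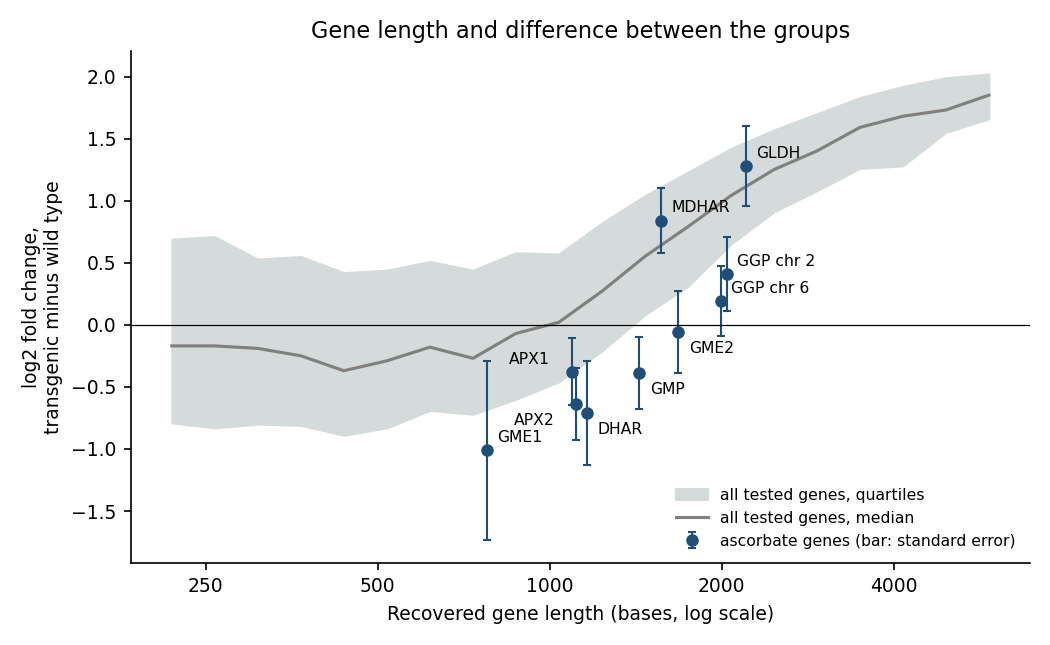
Log2 fold change of RPKM + 1, transgenic minus wild type, against recovered gene length (bases, log scale); the line and band are the median and quartiles of all tested genes in length bins, and points with bars are the ascorbate genes with their limma standard errors. GLDH (1.28) and MDHAR (0.84) lie above the line and the other 8 genes below it. All recovered lengths are lower limits.

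Lines D7 and C2 were within 1.35-fold of each other for the 9 genes other than GME1, with MDHAR (1.03-fold) and GLDH (1.06-fold) closest and APX2 (1.35-fold) farthest apart. Of the members, 4 (GMP, the GGP gene on chromosome 6, APX2 and GME1) differed more between the lines than the median of genes averaging 5 RPKM or more, and 6 differed less. The wild-type libraries were within 1.6-fold for the 8 genes other than GME1 and DHAR. The members most alike in pattern over the 4 libraries, by the distance between their centred log2(RPKM + 1) values, were GMP with APX1 (0.19), GMP with APX2 (0.28) and APX1 with APX2 (0.31). In these 3 genes wild type was above line C2 and line C2 above line D7.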

How the data were processed

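Poly(A)-enriched RNA of 4 tomato fruit libraries was sequenced, per the labels' protocols. The authors deposited 1 table of RPKM values with a column per library, and the submitters' processing notes name HTSeq. Aligner, genome build, annotation release, strand setting and handling of multiply mapped reads were not given in the sources used here. Columns were matched to samples by line name or replicate number. Library totals and gene lengths were recovered from the steps of low RPKM values (lengths of 60 to 20000 bases, tolerance 0.001 reads). This gave whole reads for 24420 of 24422 genes above 0, and for 7.5% of 1000 genes when wrong totals were used. The totals were 15227619 and 12916160 reads for lines D7 and C2 and 21403774 and 13101910 for wild-type replicates 1 and 2, at which 3 reads in 1 kilobase correspond to 0.197, 0.232, 0.14 and 0.229 RPKM.

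The test was limma 3.58.1 (R 4.3.3), with lmFit and trended eBayes fitted to log2(RPKM + 1). Genes averaging 1 RPKM or more entered the fit, and p was adjusted by Benjamini-Hochberg across all of them. A fold change on this scale understates the change of low genes. The read recovery and the limma fit were tested on simulated data. Those for limma held no length trend and no shift of the whole table, so they cannot show how either affects the calls. The length trend was removed per library by loess (span 0.3) on recovered length. All 10 listed genes are named. The genes, ratios and settings were chosen with earlier results of these data known, and the list is described by counts and medians without a test of its own. Other ascorbate pathway genes and fruit marker genes were not analysed, since no source used here pairs their names with the IDs.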

Additional observations from a re-analysis of the deposited data

How the results depend on the processing

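The scalings to equal summed RPKM and without the 10 most abundant genes, and the crossed block, were added after seeing the data. Of 180 values for single genes (10 genes in 18 settings), 158 kept their direction and their side of the threshold. A call was lost in 9 (all of GLDH) and gained in 3, and 10 reversed. The gains were MDHAR under both added scalings and DHAR, as lower, without wild-type replicate 1, a fit that leaves 1 wild-type library. GGP on chromosome 2 reversed with median-of-ratios scaling (-0.23) and the length correction (-0.58), as did GGP on chromosome 6 (-0.45 and -0.76). APX1 reversed with quantile normalization (0.10) and at equal summed RPKM (0.01). GME2 reversed without the 10 most abundant genes (0.18), at equal summed RPKM (0.33), without line D7 (0.02) and without wild-type replicate 1 (0.28). Leaving out each library in turn, the GME2 value ran from -0.39 to 0.28. The count of 1 member called higher became 0 with no filter, median-of-ratios scaling, quantile normalization and the length correction, and 2 under both added scalings. All genes called higher in these settings numbered 11, 498, 17 and 18, and 5881 (equal summed RPKM) and 4670 (without the 10 most abundant genes), against 3179 in the values as deposited. Leaving out each library gave a median log2 fold change of the members of -0.23 to -0.08. A lone library is assumed there to vary like the other group. That median, -0.22, became -0.85 with median-of-ratios scaling, -0.01 with quantile normalization, -0.76 with the length correction, 0.02 without the 10 most abundant genes and 0.17 at equal summed RPKM. The cause of these changes was not tested. Replicate numbers mark no shared plant or day in the labels, and libraries with the same number deviated from their group means with a correlation of -0.16 over genes. In a fit with a replicate block, 0 members and 24 genes of the table were called higher, against 1 and 3179 without it. With the crossed block, 1 member and 4071 genes were called higher. Shares, ratios and places within a library were not recomputed. Depth limits mainly GLDH and GME1, the members with the fewest reads.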
